A study of Mus musculus with 768 samples.

Results

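Tumor-infiltrating cells that carried transcripts of Pdcd1, the gene of the checkpoint receptor PD-1, were set against cells of the same plate in which no Pdcd1 was found. The cells came from MTAP1A tumors, a fibrosarcoma that arose in a mouse deficient in Tap1, implanted in C57BL/6 mice that were either WT or PD-1-/-. They were sorted by surface markers, among them presence of NK1.1 and absence of CD3, as single cells onto 1 plate for each genotype, each plate from a pool of 3 mice, and sequenced by SMART-SEQ2, which reads full-length transcripts and adds no molecular identifiers. Members were chosen on their measured Pdcd1 value: wells with 1000 to 3500 genes above 0 RPKM were kept, counting genes found in at least 3 of the 768 wells, and a kept well was a member where Pdcd1 was above 0 RPKM. This gave 56 of 726 kept cells, of which 47 came from the PD-1-/- plate, 12.8% (9.59 to 16.7) of its kept cells, and 9 of 360 from the WT plate, 2.5% (1.15 to 4.69). RPKM are reads scaled to the length of the gene and to the mapped reads of the cell, and a gene is called present in a cell at any value above 0. The comparison across all genes was made within the PD-1-/- plate, between the 47 members and the kept cells without Pdcd1, and the 9 WT cells are only described. Genotype and plate cannot be told apart, no cell can be traced to its mouse, and cells of 1 pool are not replicates, so that neither tests nor replicate errors are given. Shares of cells carry exact binomial (Clopper-Pearson) 95% intervals, which cover counting error only.

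PD-1 is an inhibitory receptor that appears on T cells after activation and stays on T cells under lasting stimulation. On binding of its ligands PD-L1 and PD-L2, encoded by Cd274 and Pdcd1lg2, it recruits SHP-type phosphatases that dampen signals from antigen receptors and costimulatory receptors. Natural killer (NK) cells are mostly found to carry little of it, and type 1 innate lymphoid cells (ILC1), their tissue-bound relatives, are told from them by low Eomes and by markers of residency such as CXCR6 and CD49a. The PD-1-/- mice have lost exons 3 and 4 of Pdcd1 and keep the rest of the gene, so that transcripts without a PD-1 protein can still be counted. The 2 missing exons are printed here because they mark what the members of the PD-1-/- plate cannot make. They were read 5′ to 3′ from GENCODE vM21 (GRCm38), on the minus strand, where exon 3 lies at chr1:94040710-94040871 and exon 4 at chr1:94040092-94040126. Both are coding exons.
Pdcd1 exon 3: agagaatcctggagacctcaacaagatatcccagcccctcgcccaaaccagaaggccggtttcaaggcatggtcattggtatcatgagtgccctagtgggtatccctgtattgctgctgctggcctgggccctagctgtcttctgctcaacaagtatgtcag
Pdcd1 exon 4: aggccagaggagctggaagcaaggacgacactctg
The deposited values are summed over the gene, so reads of these exons could not be looked at apart from the others.

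Among the 47 members of the PD-1-/- plate, Pdcd1 ranged from 1.64 to 536.4 RPKM with a median of 89.5, and the median of recovered reads was 55. The lowest 6 members lay between 1.64 and 3.91 RPKM with 1 to 4 reads, the next lay at 12.8 RPKM with 10 reads, and all cells just outside the threshold are at 0. Members were found in 15 of 16 plate rows, with 0 to 7 in a row, 22 in the upper block of the plate (rows A to H) and 25 in the lower block (rows I to P), names used for them from here on. The median number of genes present was 2371 (1445 to 3463) in members and 2232 (1089 to 3495) in the other cells, and the median of recovered reads was 335161 and 337454. No member but 14 of the other cells had fewer than 100000 recovered reads.

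**Figure D1:**
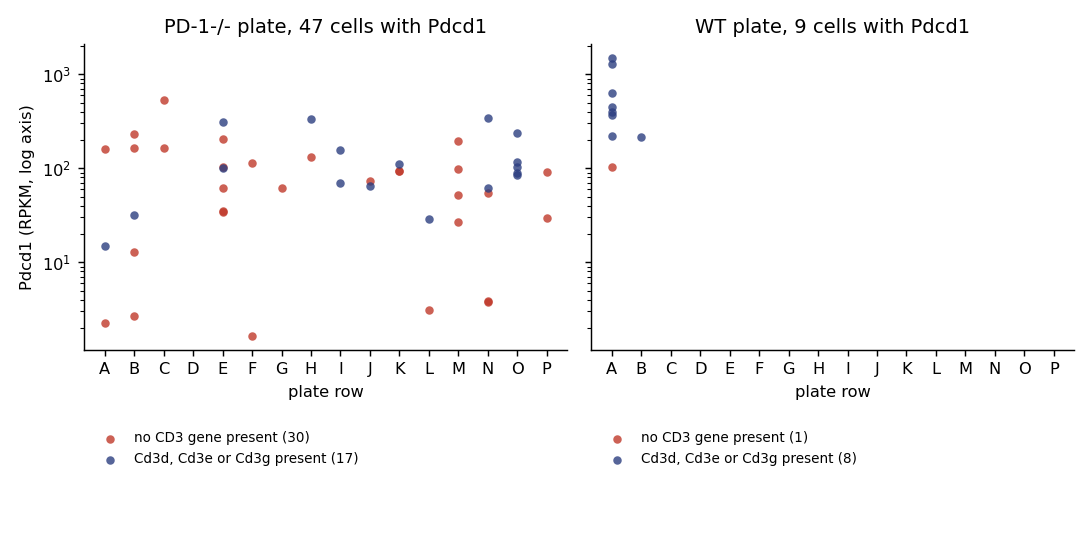
Pdcd1 in RPKM (log axis) in each cell with Pdcd1, by the plate row of its well, for the PD-1-/- plate (left) and the WT plate (right). Blue points are cells with Cd3d, Cd3e or Cd3g present. The 47 PD-1-/- cells are spread over 15 rows from 1.64 to 536.4 RPKM, and the 9 WT cells lie in rows A and B with a median of 394.7 RPKM.

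The sort label was checked against marker genes. Of the NK markers, Klrb1c (NK1.1) was present in 47 of 47 members, Klrk1 (NKG2D) and the signaling adaptor Fcer1g also in 47, Klre1 in 44, Ncr1 (NKp46) in 42 and the adaptor Tyrobp in 41. In the other cells these genes were present in 92.2% (Ncr1) to 99.7% (Fcer1g). Eomes was in 16 members, 34.04% against 58.3% of the other cells. Gzma was in 39 members, with a mean of 5224.7 against 11039.8 RPKM. Each member had 5 to 8 of the 8 NK markers, and each of the other cells 2 to 8. The summed level had a median of 12865.8 RPKM in members and 18488.4 RPKM in the other cells. The sort had excluded surface CD3, but 17 of 47 members, 36.2% (22.7 to 51.5), had transcripts of Cd3d, Cd3e or Cd3g, against 20.7% (16.4 to 25.5) of the other cells. Over 12 T cell markers with a value in the files, the summed level had a median of 3.23 RPKM (0 to 4395.3) in members and of 0 (0 to 6140.4) in the other cells. Beside the CD3 chains, Cd28 was present in 12 members, 25.5% against 20.7% of the other cells, and Bcl11b in 5, 10.6% against 5.33%. Cd6 was present in 4 members, Cd5 in 3 (6.38% against 1.25%), Cd8a in 2 and Cd4 in 1. Of the 12 markers only Themis was at 0 in all members. Myeloid markers were close to absent, with Lyz2 and Cd68 in 1 member each and Csf1r, C1qa and Emr1 at 0, and all 3 neutrophil markers were at 0. A count of 0 among 47 cells allows a share of up to 6.38%, taken here and for other counts of 0 as 3 counts of the total, while the upper bound of the exact interval is 7.55%. B cell markers were found in 2 members (Cd79a in 1, Cd79b in 1), and of the fibrosarcoma markers only Sparc was found, also in 2. Because CD3 transcripts were more frequent in members, the comparison was also made between the 30 members and the other cells that had no CD3 transcript.

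Over all genes, 4401 had a mean of at least 10 RPKM and were present in at least 20% of cells in 1 of the groups. Differences are log2 ratios of mean RPKM with a pseudocount of 1, members over other cells, and a gene counted as higher or lower from 2-fold. By this rule 4.27% of the genes were higher and 4.07% were lower in members, and the median log2 ratio of all 4401 was 0.01. These counts describe 2 sets of cells and are no test. With so few members a single cell can carry a mean: without the highest cell of each gene in each group, 2.66% were higher and 8.84% lower, and the median of all genes moved to -0.15. As differences of mean log2 values, 6.84% were higher and 1.45% lower, with a median of all genes of 0.21. Genes were therefore named only where the share of cells moved the same way by at least 10 percentage points and the ratio had the same sign in both blocks of the plate. A gene that passed the filter only through the group in which it was high had to differ. This held for 73.9% of the higher genes, for which the other cells alone were under the limit on the mean or on the share, and for 69.3% of the lower genes, for which the members alone were. Among the genes named in the following as higher over all cells it was the case for Ctla4, Qpct, Cass4, Mnda, Vat1 and Slc4a7. It was also the case for Ifitm1, Tnfsf8, AA467197, Cd74, H2-Ab1, Lag3, Cxcr6, Inpp4b, Ly6a, Amica1, Tmem176b, Jun and Pdk1. Among the lower genes of the lists and the naming rule it was the case, over all cells, for Armc8, Klra18, Nol12, Ndrg3 and Ptpn9. It held as well for Sidt1, Klra21, Agpat2, Itga2, Klra23, Klf2, S1pr5, Nfkbid, Bms1 and Phb. The counts of lists therefore describe the genes that passed and support no direction.

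**Figure D2:**
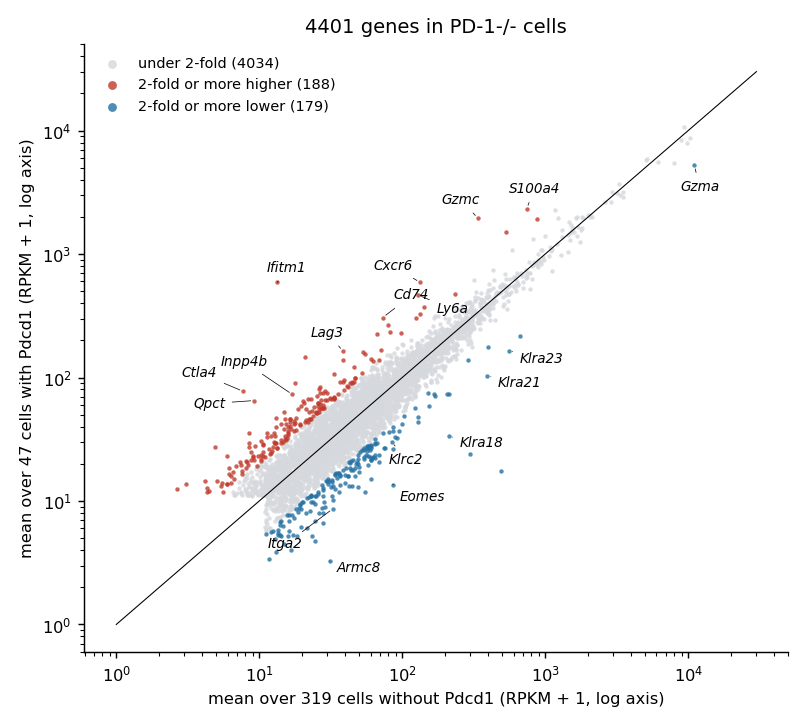
Mean RPKM + 1 over the 47 PD-1-/- cells with Pdcd1 (vertical, log axis) against the PD-1-/- cells without it (horizontal, log axis), 1 point per gene for 4401 genes, with the line of equal means. Red points are the 4.27% of genes at least 2-fold higher and blue points the 4.07% at least 2-fold lower, and Ifitm1 stands farthest above the line.

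Other coinhibitory receptors were the group nearest to Pdcd1 itself. Of 13 listed, 7 passed the filter on low values, 3 of them were higher, beside 4.27% of all genes, and none was lower, with a median log2 ratio of 0.52. Of the 3 higher genes, Lag3 and Ctla4 passed only through the members. Lag3, Tigit, Cd160, Klrg1, Cd96, Cd244 and Cd5 of this list are also named by the study from these cells, so the count is no independent evidence of a direction. Lag3, a receptor for MHC class II, was present in 24 of 47 members, 51.1% (36.1 to 65.9), against 16.9% (12.98 to 21.5) of the other cells, and its mean was 162.7 against 37.55 RPKM, a log2 ratio of 2.09. Ctla4, which competes with CD28 for the B7 ligands, was found in 11 members, 23.4% (12.3 to 38.03), and 13 other cells, 4.08% (2.19 to 6.87), with a log2 ratio of 3.32. The cells that had it also had more of it, with a median of 274.5 RPKM in those members and 44.6 RPKM in those other cells. Cd160, a receptor of the immunoglobulin superfamily that binds HVEM, was present in 65.96% (50.7 to 79.1) and 38.2% (32.9 to 43.8), a log2 ratio of 1.24 that was 0.85 in the lower block. Tigit, in contrast, was present in 59.6% of members and 62.1% of the other cells with a log2 ratio of -0.25, and Cd244, Cd96 and Klrg1 had log2 ratios of 0.06, -0.77 and 0.52. Havcr2 (TIM-3) and Btla were at 0 in all members. Thinning each cell to 100000 reads left Lag3 at 51.1% against 16.4% and Ctla4 at 23.4% against 3.93%.

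**Figure D3:**
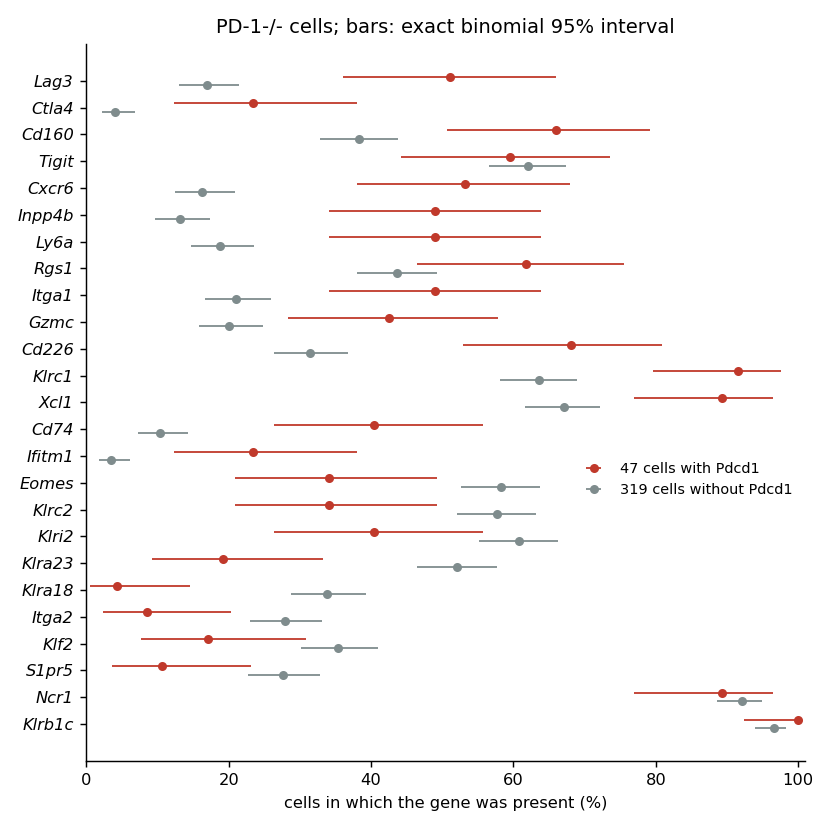
Share of PD-1-/- cells in which each of 25 genes was present, in %, for the 47 cells with Pdcd1 (red) and the cells without it (gray), with exact binomial 95% intervals as bars. From Lag3 to Ifitm1 the red points lie to the right except for Tigit, from Eomes to S1pr5 they lie to the left, and for the NK markers Ncr1 and Klrb1c both groups are near 100%.

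Of the genes of tissue residency and ILC1, 7 of the 13 that passed were higher, beside 4.27% of all genes. None was lower, beside 4.07% of all genes, and the median log2 ratio was 1.04. The filter favored such a count, since 5 of the 7, Cxcr6, Inpp4b, Ly6a, Amica1 and Tmem176b, were each in fewer than 20% of the other cells and passed only through the members. The study names several of them from the same cells, among them Cxcr6, Itga1, Ly6a, Amica1, Gzmc and Tmem176b, and S1pr5 of the circulation genes, so these counts too are no independent evidence of a direction. Cxcr6, a chemokine receptor that holds lymphocytes in liver and tumors, had a mean of 588.3 RPKM in members and 132.3 RPKM in the other cells, a log2 ratio of 2.14 (1.24 in the upper and 2.67 in the lower block). It was present in 53.2% (38.1 to 67.9) of members against 16.3% (12.4 to 20.8), and where present its median was 1166.9 RPKM in members and 593.8 RPKM in the others. The highest single value was not among the members, at 2656.7 against 3077.5 RPKM. After thinning, Cxcr6 was in 53.2% and 13.4%. Inpp4b, a phosphatase of phosphoinositides, was present in 48.9% (34.1 to 63.9) against 13.2% (9.66 to 17.4) and had a log2 ratio of 2.10. Gzmc, the gene of granzyme C, reached 1950.6 against 336.7 RPKM, a log2 ratio of 2.53, with a median of 2219 RPKM in the 20 members that had it and of 321.5 RPKM in the 64 other cells. The surface protein gene Ly6a (Sca-1) had a log2 ratio of 1.84, Tmem176b of 1.73, the adhesion molecule gene Amica1 (JAML) of 1.33 and Rgs1, a regulator of G protein signaling, of 1.04. For Tmem176b this was 3.29 in the upper and 0.41 in the lower block, and without the highest cells Rgs1 came to 0.90, under 2-fold. Ly6a has close relatives in the Ly6 family between which reads could be split, so its value is uncertain. Itga1 (CD49a) was present in more members, 48.9% (34.1 to 63.9) against 21% (16.7 to 25.9), while its log2 ratio of 0.72 stayed under 2-fold. Cd69 and Tnfsf10 (TRAIL) had log2 ratios of 0.62 and 0.58. Of other chemokine receptors, Cxcr3 had a log2 ratio of 0.36 and Ccr2 of -0.67.

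Counted per cell, the residency and ILC1 list gave members a median of 6 of 17 genes (1 to 12) and the other cells a median of 2 (0 to 12). At least 3 were present in 38 of 47 members, 80.9%, and in 46.1% of the other cells. With the 15 of these genes whose reads could be recovered, and in the cells deep enough for thinning, the shares were 74.5% and 40.7%. For coinhibitory receptors the medians were 4 of 13 and 3 of 13, with at least 3 present in 87.2% and 50.8%, and over the 11 genes and the cells that could be thinned 72.3% and 38.7%. Cd160 is not among those 11 genes, so these shares differ from the first in genes and cells as well as in depth. Both distributions overlapped over most of their range.

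**Figure D4:**
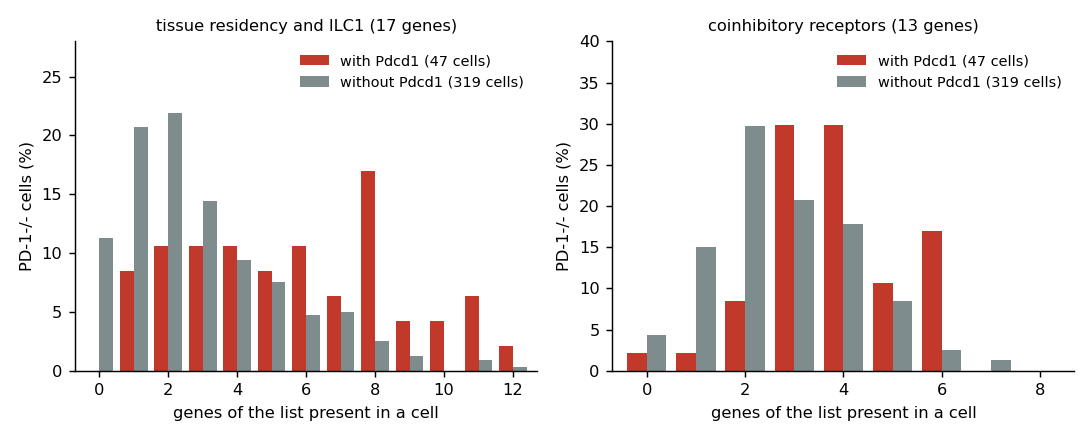
Number of genes of a list that were present in a cell (horizontal) and the share of PD-1-/- cells with that number in % (vertical), for 47 cells with Pdcd1 (red) and those without (gray). On the left is the residency and ILC1 list of 17 genes, with medians of 6 and 2, and on the right the coinhibitory receptors without Pdcd1, with medians of 4 and 3.

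Of the circulation and egress list, genes of circulating, mature NK cells, 6 passed, 2 were lower, beside 4.07% of all genes, and none was higher, with a median log2 ratio of -0.69. Both lower genes, Klf2 and S1pr5, were in fewer than 20% of members and passed only through the other cells. The number of the 11 genes present per cell had a median of 3 in both groups. Klf2, the factor that drives expression of receptors for lymphocyte egress, had a log2 ratio of -1.75 and was present in 17.02% (7.65 to 30.8) of members against 35.4% (30.2 to 40.9). S1pr5, through which NK cells leave tissues along sphingosine-1-phosphate, had a log2 ratio of -1.09 (-0.57 in the upper and -1.71 in the lower block), and without CD3 cells it came to -0.91, under 2-fold. S1pr4, a receptor for the same lipid, had a log2 ratio of 0.53 and was present in 61.7% of members and 48.3% of other cells. Itga2, the CD49b integrin chain carried by conventional NK cells, was present in 4 members, 8.51% (2.37 to 20.4), against 27.9% (23.1 to 33.2), a log2 ratio of -1.92. Cma1, which did not pass the filter, was in none of the members and in 10.3% of the other cells.

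Eomes, the T-box factor of conventional NK cells, was over all cells the only one of 10 lineage factors that passed to be lower, beside 4.07% of all genes, and none was higher. Without CD3 cells Irf8 was also lower, at -1.01, and Gata3 higher, at 1.10. Over all cells Eomes was present in 16 members, 34.04% (20.9 to 49.3), against 58.3% (52.7 to 63.8) of the other cells. Its mean was 12.6 against 84.8 RPKM, a log2 ratio of -2.66. Where present, it had a median of 17.05 RPKM and a highest value of 125.1 RPKM in members, against 132.4 and 793.6 RPKM in the other cells. The related Tbx21 (T-bet) had a log2 ratio of -0.13, Irf8 of -0.79, Tcf7 of 0.11 and Gata3 of 0.61. After thinning, Eomes was at 27.7% of members and 55.4% of the other cells.

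Of 18 NK receptor and adaptor genes that passed, 3 were lower, beside 4.07% of all genes, none was higher, and the median log2 ratio was -0.09. The lower genes were Klrc2 (NKG2C, -1.49), Klri2 (-1.24) and Klrb1a (-1.49), and Klrb1a was -0.90 in the upper block. Klrc1 (NKG2A), the inhibitory partner of CD94, was in turn present in 43 of 47 members, 91.5% (79.6 to 97.6), against 63.6% (58.1 to 68.9), with a log2 ratio of 0.47. Cd226 (DNAM-1), an activating receptor that shares its ligands with TIGIT, was present in 68.1% (52.9 to 80.9) against 31.3% (26.3 to 36.7), and its log2 ratio was 0.98, while without CD3 cells it was 1.21 and counted as higher. In the Ly49 family, 1 of 4 listed genes that passed was lower, beside 4.07% of all genes. This was Klra23, which passed only through the other cells and was in 19.1% (9.15 to 33.3) of members against 52.04% (46.4 to 57.6), a log2 ratio of -1.75. Of the listed genes that did not pass, Klra5 went the other way, with a log2 ratio of 2.89 and presence in 14.9% of members against 5.33%. Klra8, Klra6 and Klra10 had -2.09, -1.25 and -1.15, and Klra1 had -0.03. Outside the list, Klra18 was in 2 members, 4.26%, against 33.9% of the other cells, with a log2 ratio of -2.66. Klra21, also outside it, was in 10.6% and 30.7% with -1.93. Klra3, Klra7 and Klra9 had log2 ratios of -0.60, -0.39 and 0.08. Ly49 genes are near-identical copies, as are Klrc1 and Klrc2 in part, so values for single genes of these families are uncertain.

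Of 9 cytotoxic genes that passed, Gzmc was higher and Gzma lower, beside 4.27% and 4.07% of all genes. Gzma was present in 82.98% (69.2 to 92.3) of members and 90.3% (86.5 to 93.3) of other cells, and its mean of 5224.7 RPKM stood against 11039.8 RPKM, a log2 ratio of -1.08. Gzmb had a log2 ratio of -0.15, the perforin gene Prf1 of -0.38, the granule protein gene Srgn of 0.08 and Nkg7 of -0.16. Of 6 cytokine and chemokine genes that passed, Ifng and Ccl3 were lower, at -1.38 and -1.17, beside 4.07% of all genes, and none was higher. Ifng was present in nearly equal shares, 29.8% and 31.3%. The Ccl3 value was uneven over the plate, -0.08 in the upper and -3.27 in the lower block, and without CD3 cells it was -0.83, under 2-fold. Xcl1, the chemokine that draws cross-presenting dendritic cells, was present in 89.4% (76.9 to 96.5) of members against 67.1% (61.6 to 72.2), a log2 ratio of 0.97.

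Factors that act on the Pdcd1 gene in T cells were listed as well, and of 13 that passed 1 was higher, beside 4.27% of all genes, and none lower, with a median log2 ratio of 0.20. The higher gene was Jun, a subunit of AP-1, at 1.57 and present in 31.9% (19.1 to 47.1) against 18.2% (14.1 to 22.9), and without the highest cells it came to 0.96. Nfatc2, a calcium-dependent factor, lay at 0.995, just under 2-fold, and at 1.43 without CD3 cells. Nfatc1 lay at -0.52, Batf at 0.37, Tox at -0.29 and Stat4 at -0.65. Nr4a1, an early gene of antigen receptor signaling, did not pass and was present in 6.38% of members and 5.96% of other cells. Of 7 immediate early genes that passed, Jun was higher and Dusp1 and Nfkbid lower, beside 4.27% and 4.07% of all genes. In the list of PD-1 ligands and proximal signaling, 12 genes passed and none was higher. Only the kinase gene Fyn was lower, at -1.11, beside 4.07% of all genes. The ligand gene Pdcd1lg2 had a log2 ratio of 0.56, with opposite signs in the blocks (-0.80 in the upper and 1.36 in the lower). It was present in 36.2% (22.7 to 51.5) of members against 17.55% (13.5 to 22.2). Cd274 did not pass and was present in 14.9% and 17.55%. The phosphatase gene Ptpn6 (SHP-1) had a log2 ratio of -0.12 and the kinase genes Lck and Zap70 had 0.05 and 0.68. The remaining lists held few differences, where 4.27% of all genes were higher and 4.07% lower. None of 10 cytokine receptors, of 6 genes of the TNF receptor family and costimulation list or of 3 cell cycle genes that passed reached 2-fold. Of 3 interferon-stimulated genes 1 was higher (Bst2, 1.40), and of 10 genes of glycolysis and hypoxia 1 was higher (Pdk1, 1.005). The cell cycle genes that did not pass had log2 ratios from 0.06 (Mcm3) to 2.30 (Ccnb2, present in 2 members). Of them, Mki67, at 1.81, was present in 19.1% of members and 6.90% of other cells. Ccna2 was present in 4.26% and 11.3%, and its log2 ratio of 2.13 (-1.29 in the upper and 2.40 in the lower block) rested on 2 members.

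The largest difference of all named genes was that of Ifitm1, an interferon-inducible membrane protein that restricts viruses. It was present in 11 of 47 members, 23.4% (12.3 to 38.03), and 11 other cells, 3.45% (1.73 to 6.09). Its mean was 588.8 RPKM in members and 12.4 RPKM in the others, a log2 ratio of 5.46 (4.48 in the upper and 5.93 in the lower block). Where present, the median was 2562 RPKM in members and 115.6 RPKM in other cells. Tnfsf8, the ligand of CD30, and Qpct, which cyclizes N-terminal glutamine, both had log2 ratios of 2.82, and Qpct was present in 27.7% (15.6 to 42.6) against 4.08% (2.19 to 6.87). Cd74, the invariant chain of MHC class II, was present in 40.4% (26.4 to 55.7) against 10.3% (7.23 to 14.2), a log2 ratio of 2.07. The other genes of the 15 highest were Cass4, AA467197, Mnda, Vat1, Slc4a7 and Ramp1, a subunit of the CGRP receptor, at log2 ratios of 1.85 to 2.48. Of the 10 lowest genes, those not yet described were Armc8, Nol12, Ndrg3, the phosphatase gene Ptpn9, Sidt1 and Agpat2, a gene of phosphatidic acid synthesis, at -3.26 to -1.92. Armc8, the lowest, was present in 10.6% of members and 23.8% of other cells.

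Leaving out the cells with CD3 transcripts kept most of this pattern, but every cell of this comparison was also part of the first. Shared genes and like signs are therefore partly fixed in advance and are no independent evidence. Among the cells without CD3 transcripts, 30 of them members, 4716 genes passed, of which 7.23% were higher and 7.08% lower. Of the higher genes 79.8% passed only through the members, and of the lower genes 61.7% only through the other cells. The genes higher in both comparisons made up 77.1% of those higher over all cells and 42.5% of those higher without CD3 cells, and the genes lower in both made up 75.98% and 40.7%. Of the genes higher over all cells 4 changed sign without CD3 cells, and of the lower ones none did. In these cells Ctla4 had a log2 ratio of 4.04, Gzmc of 2.45, Cxcr6 of 2.41, Inpp4b of 2.33, Lag3 of 2.30 and Eomes of -3.19. Lag3 was present in 53.3% and 15.4% of cells, and in the residency and ILC1 list 9 of the 14 genes that passed were higher, beside the 7.23% of all genes, 7 of the 9 passing only through the members. In the coinhibitory list the higher genes were again Lag3, Ctla4 and Cd160, in the cytotoxic list Gzmc was higher and Gzma lower, in the Ly49 list Klra23 was lower, and among NK receptors and adaptors Klrc2, Klri2 and Klrb1a were lower and Cd226 higher. Only Klf2 was lower among 6 circulation genes and only Ifng among 7 cytokine and chemokine genes, beside 7.08% of all genes. Of 13 factors that act on Pdcd1, 3 were higher, beside 7.23% of all genes. These were Jun (2.18), Nfatc2 and Rbpj (1.22), all of them passing only through the members. Il21r (1.26) and Mki67 (1.97) were higher as well, which they were not over all cells, and both passed only through the members. For Mki67 the mean was 11.2 RPKM in members, with a highest single value of 260.1 RPKM, against 2.13 RPKM in the other cells. The 10 highest genes by the same rule were Ifitm1 (7.90), Ifitm3 (4.28), Ctla4, Qpct (3.61), Cd74 (3.26), Fam110a (3.20), the MHC class II chain gene H2-Ab1 (3.08, and -0.35 over all cells of the lower block), Sema6d (2.90), Filip1 (2.89) and 5430421N21Rik (2.83). All 10 passed only through the members, and Ifitm3, Fam110a, Sema6d, Filip1 and 5430421N21Rik had not passed over all cells. The 5 lowest were Ndrg3 (-5.70), Carkd (-4.18), Nol12 (-3.61), Bms1, which serves ribosome assembly, (-3.50) and Phb (-3.25), and all 5 passed only through the other cells. Slc4a7, by contrast, came to 0.52 and no longer passed, and Cass4, at 2.04 and present in 16.7% of members, no longer passed either.

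**Figure D5:**
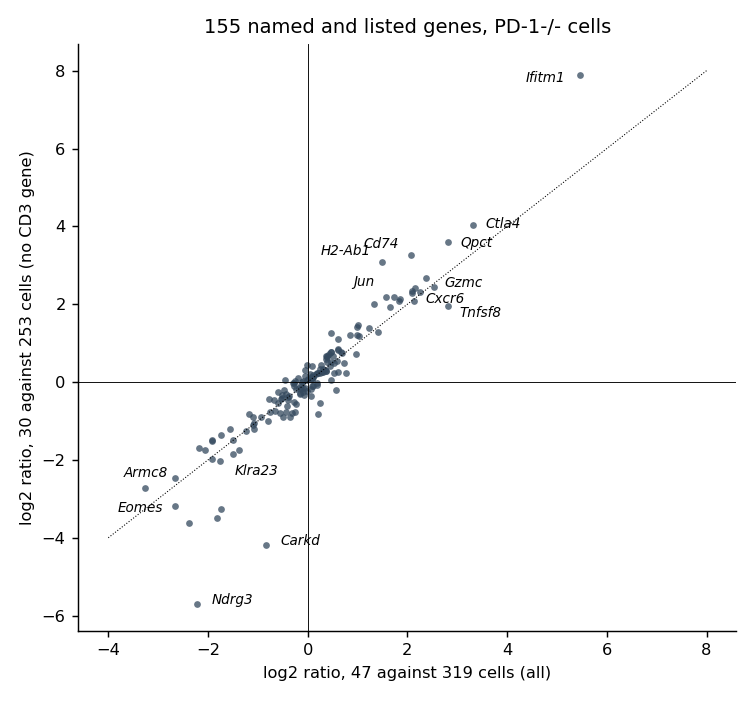
Log2 ratio of mean RPKM, cells with Pdcd1 over cells without, for the named and listed genes that passed the filter in both comparisons: over all PD-1-/- cells (horizontal) and over those with no Cd3d, Cd3e or Cd3g (vertical). The dotted line marks equal ratios. Most points lie near it, Ifitm1, Cd74 and H2-Ab1 lie above it, and Carkd and Ndrg3 lie below.

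The members were not alike among themselves. Of the 17 with CD3 transcripts 12 had Cxcr6, 10 Ly6a, 8 Lag3, 4 Gzmc and 3 Ctla4, and of the 30 without them 13 had Cxcr6, 13 Ly6a, 16 Lag3, 16 Gzmc and 8 Ctla4. Eomes was in 7 of 17 and 9 of 30. Itga2 was in none of the 17, which allows a share of up to 17.6% (the exact interval reaches 19.5%), and in 4 of 30. Over the whole PD-1-/- plate, Pdcd1 was present in 20.5% (12.4 to 30.8) of those with CD3 transcripts and 10.6% (7.27 to 14.8) of those without.

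Cxcr6 was present in 25 members and at 0 in 22. Among cells without Cxcr6, Lag3 was present in 12 of 22 members, 54.5% (32.2 to 75.6), and 40 other cells, 14.98% (10.9 to 19.8), and Cd226 in 59.1% and 26.2%. Among cells with Cxcr6, Lag3 was in 12 of 25 members and 14 of 52 other cells, 48% (27.8 to 68.7) and 26.9% (15.6 to 41.02), intervals that overlapped. Ifitm1 showed the opposite split, with 11 of 25 members with Cxcr6, 44% (24.4 to 65.1), and 0 of 22 without it, a count that leaves room for up to 13.6% (the exact interval reaches 15.4%). Among the other cells it was in 7.69% of those with Cxcr6 and 2.62% of those without. Inpp4b was in 18 of the 25 and 5 of the 22, and Gzmc in 15 and 5. Eomes was in 28% of members and 25% of other cells with Cxcr6, and without Cxcr6 in 40.9% (20.7 to 63.6) of members and 64.8% (58.7 to 70.5) of other cells.

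Over the 47 members Spearman's rho of Pdcd1 RPKM was 0.17 with Cxcr6, 0.11 with Lag3, -0.06 with Eomes and 0.23 with Klrc1, and -0.26 with the number of genes present, values that share each cell's depth and are given as a description. Of the 6 members with fewer than 10 Pdcd1 reads 1 had Cxcr6, 2 had Lag3 and 3 had Eomes, and none had a CD3 transcript, while of the other 41 members 24 had Cxcr6, 22 Lag3 and 13 Eomes.

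The 9 WT members stood apart from the 47 in where they lay and in their CD3 transcripts. Row A held 8 of them and row B 1, so that 8 of 17 kept WT cells of row A, 47.1% (22.98 to 72.2), had Pdcd1, against 3 of 23 in row A of the PD-1-/- plate. Their Pdcd1 had a median of 394.7 RPKM and reached 1492.7 RPKM. In well A22 the value of 219.4 RPKM rested on 1 read, and in well A9 that of 451.3 RPKM on 10 reads. The shallowest WT member had 2185 recovered reads, and 7 of the 9 were deep enough for thinning. CD3 transcripts were present in 8 of 9, against 12 of 29 other kept cells of the same rows and 13.98% of those in rows C to P, and the part of the wells' position in these values was not tested. Klrb1c, Klrk1, Klre1, Tyrobp, Fcer1g, Klrc1, Xcl1 and Tigit were present in all 9, Ncr1 in 5 and Eomes in 1. Inpp4b was present in 8, Cxcr6, Gzmc, Ly6a and Rgs1 in 7 each, Lag3 and Itga1 in 6 and Ctla4 in 2. In the 12 other WT cells of these rows with CD3 transcripts, Cxcr6 was present in 6, Tigit in 5, Gzmc in 4, and Lag3 and Inpp4b in 2. The WT members had 6 to 11 of the 17 residency and ILC1 genes, with a median of 7, and the WT cells without Pdcd1 a median of 2.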

How the data were processed

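For 768 wells the authors made SMART-SEQ2 libraries and deposited RPKM, with 24490 entries for genes in every well. The submitters' processing notes name TopHat and Cufflinks and the builds mm9 and mm10 without their roles, so no coordinate of the deposited values is given. RPKM were used as deposited, and entries that share a symbol were kept apart. Because 1 read is worth a fixed RPKM step for a gene in a cell, reads could be recovered for 10255 entries, and 98.5% of 722205 values under 60 reads came out whole (relative tolerance 0.0003). These reads served for depth, for thinning, and to describe and split members by their Pdcd1 reads, also in the setting of members with at least 10. Reads without molecular identifiers are not independent molecules.

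On the PD-1-/- plate 47 cells with Pdcd1 were set against 319 without, of 366 kept, and without CD3 cells 30 against 253. Past 2-fold were 188 genes higher and 179 lower of 4401, and 341 and 334 of 4716. The kept wells, the members, the filter (mean of at least 10 RPKM and presence in 20% of cells in 1 group), the pseudocount of 1 and the 2-fold rule are as stated with the results. Cells of 1 pool are not replicates, so no p-value was computed, and called means past 2-fold. Named genes were the 15 highest and 10 lowest over all cells and the 10 highest and 5 lowest without CD3 cells that met the naming rule, with the 17 gene lists and the marker lists. Members and lists were chosen with earlier results of these data known, and several listed genes, among them Cxcr6, Lag3, Cd160, Gzmc and Ly6a, are ones the study names from these cells, which is no independent evidence of their direction. H2-Aa, H2-Eb1, Ciita, Ifitm2, S100a4 and the Snord entries were looked up after their values were seen. Some listed genes are not reported here. A total of 14 other settings were planned, 1 was added after seeing the data, and the code was tested on simulated data. Shallow wells limit what can be found present. Python 3.11.15, numpy 2.4.6, pandas 2.3.3, scipy 1.17.1 and matplotlib 3.10.9 were used. Exon positions and sequence came from GENCODE vM21 (GRCm38). Doublets were not searched for in sorted wells.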

Additional observations from a re-analysis of the deposited data

Results flagged for a closer look

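Pdcd1 was also found outside the kept cells. Of the 42 wells removed by the limits on genes present, 7 had Pdcd1 above 0 RPKM, 16.7% (6.97 to 31.4), a signal in wells that no comparison used. All 7 lay above the upper limit of 3500 genes, 5 of 14 such wells on the PD-1-/- plate and 2 of 16 on the WT plate, and none of the 12 wells below the lower limit had it. Adding the removed wells gave a share of 13.5% of PD-1-/- wells and of 2.86% of WT wells.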

How the results depend on the processing

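No paired analysis was possible because the results come from no test and each genotype is 1 pool. The PD-1-/- share of cells with Pdcd1 stayed between 10.6% and 13.7% in the 8 other settings run for it. The WT share, 2.5%, was 0.339% without CD3 cells, 5.06% in the upper block of the plate, 0% in the lower block and 0% without rows A and B. Of genes tested, 4.27% were higher and 4.07% lower. These shares were 1.64% and 1.52% with a pseudocount of 10, 9.22% and 19.4% once the mean limit was 1 RPKM without a share limit, 6.48% and 13.7% with no filter, 7.23% and 7.08% without CD3 cells, 9.59% and 9.48% in the upper block, 8.7% and 8.39% in the lower block, 6.84% and 1.45% as means of log2 values and 2.66% and 8.84% without the highest cell of each gene. Among cells without CD3 transcripts they were 7.23% and 7.08%, and 3.37% and 3.05% with a pseudocount of 10, 10.3% and 25.97% once the mean limit was 1 RPKM without a share limit, 7.56% and 19.1% with no filter, 11.5% and 11.97% in the upper block, 14.3% and 15.3% in the lower block, 11.01% and 2.44% as means of log2 values and 4.28% and 15.9% without the highest cell of each gene. The cause was not tested. Of 51 named and listed genes past 2-fold over all cells, 50 kept their sign in the 14 settings planned and the 1 added after seeing the data, where they had a value. Thinning gave none for 6 of the 51, Ifitm1, Armc8, Cd160, Fyn, Klrc2 and Tmem176b. The exception was H2-Ab1, at -0.35 in the lower block. In the lower block without CD3 cells, Vat1 was at -0.71 and Amica1 at -0.17. All settings draw on cells of the same plate, and the naming rule required the same sign in both blocks for the named genes. A kept sign is therefore partly fixed in advance and does not show that a call holds. Of the genes past 2-fold over all cells, 83 of the higher and 41 of the lower stayed so as means of log2 values. With a pseudocount of 10 these were 72 and 67. With so few members a single cell weighs heavily on a mean.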

Other observations

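Cd74 and H2-Ab1 were among the named genes, and the other genes of MHC class II were then looked up after their values were seen. H2-Ab1 was present in 10 of 47 members and 19 other cells, 21.3% (10.7 to 35.7) and 5.96% (3.62 to 9.14). Its log2 ratio was 3.14 in the upper block of the plate and -0.35 in the lower. H2-Aa and H2-Eb1 were present in 2 members each, and Ciita, the transactivator of these genes, in none. Cd74 was in 15 of the 30 members without CD3 transcripts, 50% (31.3 to 68.7), and in 4 of the 17 with them, 23.5% (6.81 to 49.9).

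Ifitm genes were looked up in the same way. Ifitm2 and Ifitm3 were each present in 9 members, 19.1%, against 4.39% and 3.13% of other cells. In members with Cxcr6 they were present in 8 and 7 of 25 cells, and in members without it in 1 and 2 of 22. S100a4, which is on no list and was also chosen after its value was seen, was present in 72.3% (57.4 to 84.4) of members and 43.6% (38.1 to 49.2) of other cells, with means of 2324.5 and 741.4 RPKM. The 2 lowest points in the plot of means that no rule named are the small nucleolar RNA entries Snord42b and Snord49b, at log2 ratios of -4.81 and -3.65, while Snord42b was present in 21.3% of members and 16.3% of other cells.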
